A study of Mus musculus with 36 samples.

Results

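RNA of unstimulated mouse microglia and astrocytes was compared in 7 libraries, 4 of microglia and 3 of astrocytes, out of 36 in the series. Members were the libraries labelled with the vehicle DMSO (spelled DSMO for the astrocytes), which had received no TNF and no inhibitor, and the comparison ran over the 13203 genes whose symbol occurred once in each cell type's table. Both cell types came from mixed glial cultures of C57BL/6 mice 2 to 4 days old, from pooled brains, grown for 12 days in flasks. Microglia were taken out by their surface protein CD11b, astrocytes were positively selected from the fraction left behind, and both rested for 24 to 48 h before 4 h with DMSO. No allele or transgene is named for any of these cells. The labels do not say that replicates came from separate cultures or animals, and the study describes its replicates in general as individual mice or cells of separate litters, without a statement for each library. The spread given here is that between libraries. For microglia it does not show their natural spread, since the gene means of replicates 1 to 3 equal those of replicate 4 across the deposited treatments, and microglial SDs, rank agreement and the rule on overlap all rest on values adjusted in this way. Microglial and astrocyte libraries are recorded as made and sequenced by different providers, while the study's methods name BGI sequencing for both. They were normalized in separate tables, so cell type and provider cannot be told apart, and no test was made between them.

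Microglia are the resident macrophages of the brain. They develop under the transcription factor PU.1 (gene Spi1), depend on the receptor Csf1r, and carry the receptors and adaptors of innate immunity. Astrocytes arise from neural progenitors under factors such as Sox9 and the NFI family, take up glutamate and potassium, and feed and signal to their neighbours. TNF acts on both through the receptors Tnfrsf1a (TNFR1) and Tnfrsf1b (TNFR2). Below TNFR1, the kinase RIPK1 first joins a ubiquitin-bearing complex that leads to NF-κB, and can later pass to a death complex with FADD and caspase-8 or with RIPK3, whose target MLKL breaks the cell membrane in necroptosis.

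Values were log2(FPKM + 1), where FPKM is the number of fragments per kilobase of exon scaled to the size of the library, and SDs are over 4 microglial or 3 astrocyte libraries. Because the scales of the tables differ, each gene was given its percentile among the 13203 shared genes of its own table, from 0 for the lowest mean to 100 for the highest. Differences in percentile points are microglia minus astrocytes, so a negative value means a higher rank in astrocytes. A gene was called higher in one cell type when its percentiles differed by at least 25 points and every library of that cell type had a higher percentile than every library of the other. By this rule 1514 genes (11.5%) ranked higher in microglia, 1675 (12.7%) ranked higher in astrocytes and 10014 were not called. The nearest gene inside the limit was 4933440N22Rik towards microglia, with 25.011 points, and Fam204a towards astrocytes, with 25.004 points. The nearest outside were Eng with 24.989 and P4htm with 24.996 points. Rank agreement over the shared genes (Spearman's rho, across genes of 1 library pair) was 0.993 to 0.995 among microglial libraries, 0.989 to 0.991 among astrocyte libraries and 0.597 to 0.613 between the cell types.

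The tables differ in shape, and this bears on every rank below. A log2 value of 1 stood at percentile 27.1 in microglia and at 4.7 in astrocytes, and a value of 3 stood at 52.7 and 35.5, whereas from 6 upwards the percentiles were close (91.7 and 89.6). Among the 6030 shared genes between 2 and 6 in both tables, the median percentile difference was 4.0 points towards microglia. For genes of low and middle level the log2 values are therefore given beside the ranks. At the top of the tables ranks compress, and several log2 units there can make less than 25 points. A dagger (†) follows the first mention of each gene that either annotation marks as confounded, a mark that is not defined in the sources used here.

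**Figure D1:**
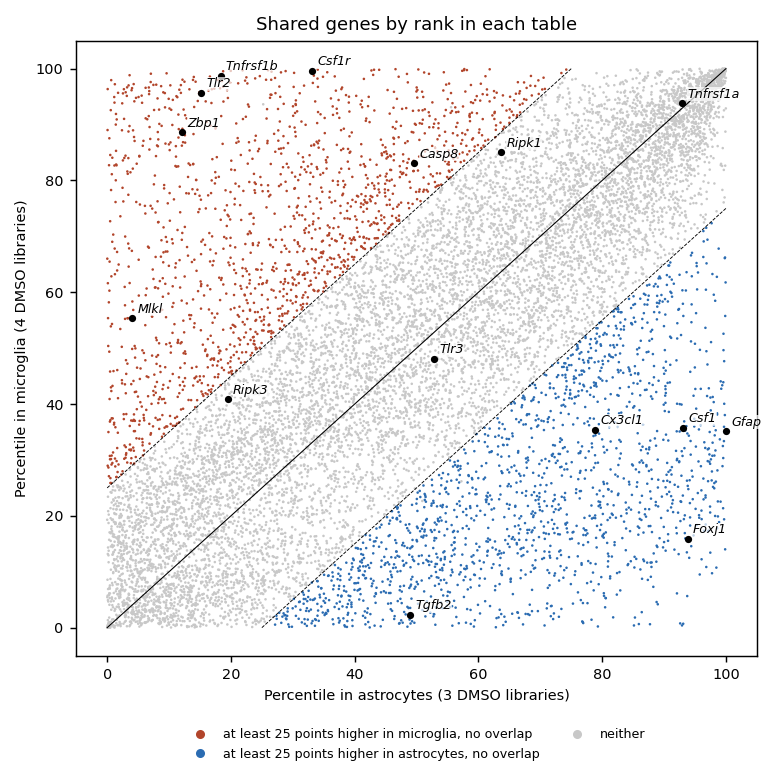
Each point is 1 of 13203 shared genes, at its percentile in astrocytes (x axis, mean of 3 DMSO libraries) and in microglia (y axis, mean of 4 DMSO libraries). Red points are the 1514 genes called higher in microglia and blue points the 1675 called higher in astrocytes; dashed lines mark 25 points, and black points are named genes such as Csf1r, Mlkl, Gfap and Foxj1.

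The microglial libraries carried the macrophage programme. Of 24 microglia markers, 21 were shared, and 19 of these ranked higher in microglia (background 11.5%), with a median percentile of 98.2 in microglia and 34.0 in astrocytes. Csf1r†, the receptor for the growth factors that keep microglia alive, stood at 9.87, 9.81, 9.88 and 9.88 in the 4 microglial libraries and at 3.02, 2.81 and 2.82 in the 3 astrocyte libraries. Spi1, the gene of PU.1, stood at 8.00, 8.01, 8.00 and 8.04 in microglia and 1.76, 1.39 and 1.54 in astrocytes. The groups of libraries did not overlap for either gene, and both lay near the top of the microglial ranking (percentiles 99.7 and 98.0). C1qa, a chain of the first complement component, had a mean of 11.53 ± 0.10 in microglia and 3.50 ± 0.13 in astrocytes. Aif1, which encodes IBA1, had 7.45 ± 0.052 and 1.25 ± 0.11. The phagocytic receptor Trem2 and its signalling partner Tyrobp had means of 9.56 ± 0.14 and 10.31 ± 0.099 in microglia. In bulk libraries fewer cells of a type and less RNA per cell cannot be told apart, here or below.

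Some markers of homeostatic microglia were low in the same libraries, whereas Cx3cr1†, with values given below, was high. It lay close to a log2 value of 8, which stood at percentile 98.0 in microglia. P2ry12†, the ADP receptor of resting microglia, stood at 2.22, 2.36, 2.62 and 2.36 in microglia, at percentile 43.5. Tmem119 stood at 3.44, 3.29, 3.51 and 3.03, at percentile 58.1. Both still passed the rule, since astrocytes ranked them lower, at percentiles 2.9 and 22.7. P2ry13†, a second ADP receptor, and the lectin Siglech were listed in the microglial table only, with means of 1.55 ± 0.27 and 0.11 ± 0.057. Sall1, a transcription factor that maintains microglial identity, had a mean of 1.56 ± 0.095 in microglia and a larger one, 3.75 ± 0.084, in astrocytes. It was not called, with -18.8 points.

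Of 12 transcription factors of microglia and macrophages, 10 were shared and 9 ranked higher in microglia, all but Sall1. Irf8†, which acts with PU.1 (6.88 ± 0.12 in microglia, 1.34 ± 0.031 in astrocytes), differed by the most points (86.7), and Cebpb† by 83.6 (6.61 ± 0.27 and 1.51 ± 0.079). Ms4a7 and the platelet factor gene Pf4 are used as markers of macrophages at the borders of the brain. Their means were 9.68 ± 0.043 and 6.24 ± 0.086 in microglia, and the mannose receptor Mrc1†, from the same list, was listed in the microglial table only with 5.42 ± 0.066. Ccr2 and Ly6c2, which mark blood monocytes, were listed there at 0.27 ± 0.035 and 0.48 ± 0.41. Whether border macrophages added to the CD11b-selected cells was not tested.

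Astrocyte markers ranked the other way. Of 22 markers, 20 were shared, and 19 ranked higher in astrocytes (background 12.7%), with a median percentile of 97.6 in astrocytes and 23.3 in microglia. Gfap†, the intermediate filament of astrocytes, stood at 11.02, 10.95 and 10.94 in the astrocyte libraries and 1.78, 1.55, 1.68 and 1.85 in the microglial libraries. Aqp4†, the water channel of astrocyte endfeet, had a mean of 8.34 ± 0.12 in astrocytes and 0.64 ± 0.20 in microglia, and the glutamate transporter Slc1a3† had 7.95 ± 0.053 and 0.83 ± 0.087. Slc1a2†, the glutamate transporter of mature astrocytes, was less abundant there, with 4.43 ± 0.16. Glul†, the glutamine synthetase used to mark astrocytes, was the exception, with 7.47, 7.40, 7.78 and 7.82 in microglia and 7.51, 7.50 and 7.40 in astrocytes, so the ranges of the cell types overlapped. Among 12 astrocyte transcription factors, 11 were shared and 8 ranked higher in astrocytes, with Sox9 at 5.50 ± 0.15 and Id4† at 5.68 ± 0.17. Id3 was high in both (percentiles 93.3 in microglia and 97.7 in astrocytes).

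The astrocyte libraries also held RNA of genes used as markers of other cells, although astrocytes had been taken by positive selection, and the source of this RNA was not tested. Foxj1, the factor that drives motile cilia in ependymal cells, stood at 6.65, 6.56 and 6.58 in astrocytes and at 0.34, 0.22, 0.24 and 0.37 in microglia. All 3 shared ependymal markers ranked higher in astrocytes, and the other 3 were listed in the astrocyte table only, with the dynein chain gene Dynlrb2 highest among them at 6.41 ± 0.32. Of 10 fibroblast and mural cell markers, 8 ranked higher in astrocytes, and the contractile genes Acta2 and Tagln† reached 9.21 ± 0.19 and 9.41 ± 0.096. Col3a1† had 7.81 ± 0.12 and the proteoglycan gene Dcn 7.28 ± 0.034. Summed over the list, FPKM was 1848 to 2064 in the astrocyte libraries and 13.2 to 16.3 in the microglial libraries, whereas the defining mural markers Rgs5 and Pdgfrb were low in astrocytes, at 1.34 ± 0.14 and 3.20 ± 0.16.

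Neuronal and oligodendrocyte lineage genes were mixed. Map2† and Stmn2, cytoskeletal genes of neurons, had means of 5.99 ± 0.16 and 5.62 ± 0.034 in astrocytes, but Nefl† was at 1.05 ± 0.16, and Snap25† and Syt1†, of the synaptic vesicle machinery, were not listed in the astrocyte table. Olig1† (6.11 ± 0.19), Olig2 (4.23 ± 0.052) and Cldn11 (4.30 ± 0.10) ranked higher in astrocytes, while Sox10 was at 1.39 ± 0.10. Cspg4, the NG2 proteoglycan gene, and Mbp†, a gene of myelin that other cells also transcribe, ranked higher in microglia, Cspg4 with means of 2.81 ± 0.12 and 1.82 ± 0.099 and Mbp with 4.62, 4.52, 4.60 and 4.62 in microglia and 1.87, 2.36 and 2.07 in astrocytes. Of 8 endothelial markers 4 were shared, and only Cdh5† ranked higher in astrocytes, at 3.73 ± 0.030. The part of these cells in the results below was not tested.

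Microglia markers had low values in the astrocyte libraries, and whether these came from microglia was not tested. In astrocytes the FPKM of C1qa was 0.349% of the microglial one, that of Spi1 0.763%, that of Csf1r 0.687% and that of Itgam† 2.47%. The share was larger for markers that were less abundant in microglia, with 19.1% for P2ry12, 20.1% for Olfml3 and 43.2% for Tmem119. In the other direction, the microglial FPKM of Gfap was 0.114% of the astrocyte one and that of Aldh1l1† 2.19%, whereas that of Glul was 111%. These ratios cross separately scaled tables and are descriptions, and those given below cannot tell a cell's own RNA from that of other cells.

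**Figure D2:**
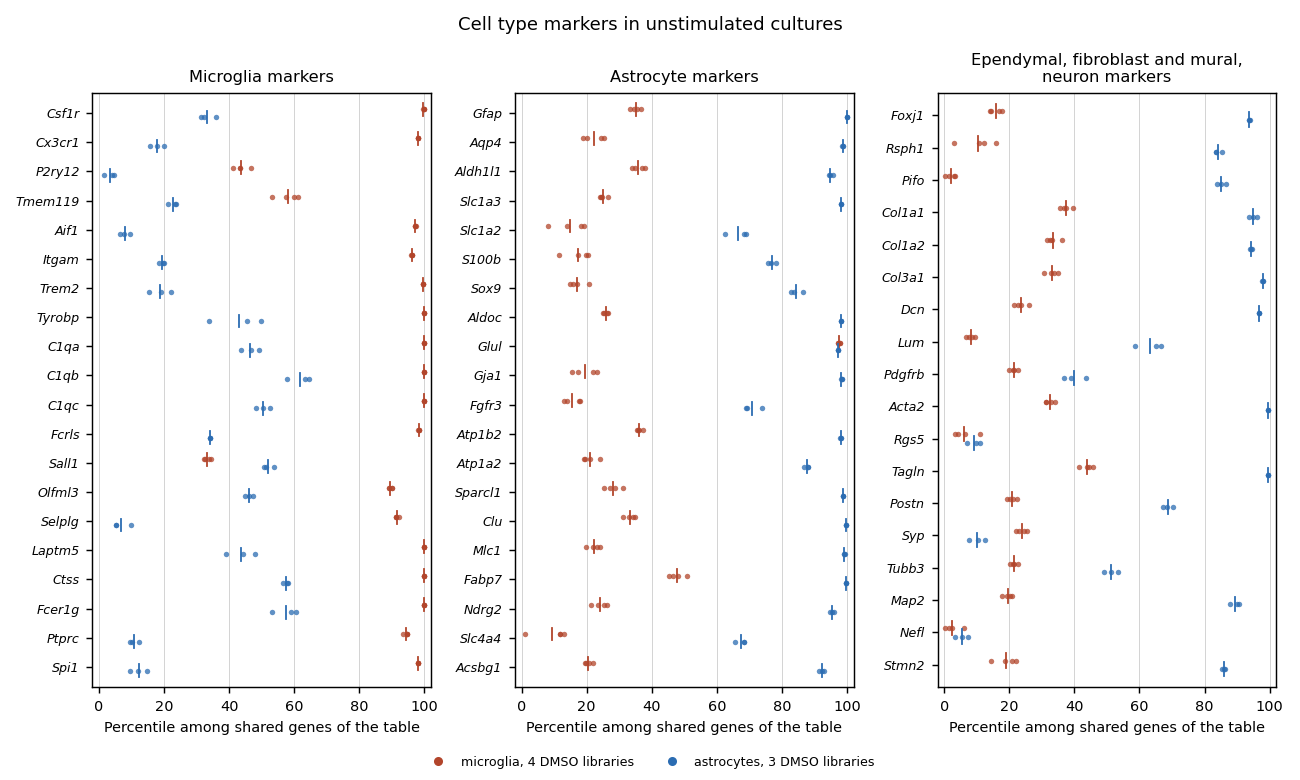
Percentile among shared genes (x axis, 0 to 100) of microglia markers, astrocyte markers and markers of ependymal, fibroblast, mural and neuronal cells, with 1 point per library (red, 4 microglial; blue, 3 astrocyte) and a bar at the mean of the points. Most microglia markers lie near 100 in microglia, P2ry12, Tmem119 and Sall1 do not, and Foxj1, Acta2, Tagln, Map2 and Stmn2 lie above 80 in astrocytes.

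The gene furthest apart in rank towards microglia was Clec7a, and towards astrocytes Nme5. Clec7a (dectin-1, a receptor for fungal glucans) had 97.3 points, with 7.92, 7.90, 8.04 and 8.03 in microglia and 0.56, 0.23 and 0.64 in astrocytes. Clec4d, the serum amyloid gene Saa3, the high-affinity Fc receptor gene Fcgr1 and Pik3ap1, an adaptor of PI3 kinase, were also among the 12 furthest towards microglia, which ended with Tnfaip8l2 at 92.8 points. The other members were Rpl15-ps3, a ribosomal pseudogene, and Wfdc17, Neurl3, Lst1, Ms4a6c† and Cd300lb†. Towards astrocytes, Nme5, a gene of motile cilia, led with -92.5 points (-0.05 ± 0.088 in microglia, 6.45 ± 0.19 in astrocytes), followed by Gm19935, Itih3, Lbp, the sphingosine phosphate receptor S1pr3†, Elobl, the protease Bace2†, the glutamine transporter Slc38a3, Ttyh1†, the zinc transporter Slc39a12, mt-Atp6† and Capsl. The 8.18 of Elobl and the 6.47 of Gm19935 in astrocytes stood against 0.14 and -0.03 in microglia.

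Mitochondrially encoded genes did not move as 1 group. mt-Atp6, mt-Co3†, mt-Co2 and mt-Nd3 had means of 0.23 ± 0.099, 0.44 ± 0.17, 1.97 ± 0.29 and 0.56 ± 0.35 in microglia and 10.39 ± 0.35, 9.68 ± 0.036, 10.26 ± 0.21 and 9.30 ± 0.14 in astrocytes. In contrast, mt-Co1† had 10.50 ± 0.50 and 11.70 ± 0.22, mt-Atp8† had 6.32 ± 0.48 and 6.57 ± 0.84, and the ribosomal RNA mt-Rnr1 was larger in microglia (8.77 ± 0.35 against 5.97 ± 0.27). These genes are transcribed together, and the counting of reads that fit several genes was not given in the sources used here for either table, so their differences between the tables are given as values only.

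The most abundant genes of each cell type included Apoe, Fth1, Ftl1†, Lyz2, Ctsd†, B2m†, Eef1a1†, Ctsb†, Psap and Ctss† in microglia and Vim, Dbi, Eef1a1, mt-Co1, Tmsb4x, Gm28437, Sparc, Gfap and Gm28661 in astrocytes, where both Gm entries are unprocessed pseudogenes on chromosome 1 by the annotation. Apoe, the main lipid carrier of the brain, was first in microglia with 14.34 ± 0.18, and had 10.28 ± 0.090 in astrocytes. Vim, an intermediate filament, was first in astrocytes with 12.21 ± 0.13 and had 8.29 ± 0.12 in microglia. Symbols listed in 1 table only numbered 2155 in microglia and 1315 in astrocytes, and 42 and 41 of these had an Ensembl identifier that the other table listed under another symbol. Among the rest, the highest protein-coding genes were Cd300ld3 (7.50 ± 0.16), Csf2rb2† (7.10 ± 0.047) and Ms4a6b† (6.79 ± 0.082) in microglia and mt-Nd4l† (7.04 ± 0.55), Dynlrb2 and Riiad1† (5.39 ± 0.16) in astrocytes. Siglec1, Clec12a, Clec4a1, Clec4a3 and Nfam1, receptors of myeloid cells or adaptors beside them, completed the microglial list with the lincRNA Gm42418† and the pseudogene Gm28439†.

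Promoters were read for a sequence bound by PU.1 because Spi1 was among the genes that separated the cell types, and for the start of the X-box, bound by RFX factors at genes of cilia, because the ependymal markers, genes of ciliated cells, ranked higher in astrocytes. RefSeq windows from 250 bases before to 50 after a gene's start (GRCm38.p6) matched 10098 of the 13203 shared genes. The letters GAGGAAGT were searched on both strands, with no overlap with the other motif. They lay in a window of 6.86% of the genes called higher in microglia, 3.00% of those called higher in astrocytes, 3.01% of those not called and 3.69% of all genes in the promoter table. The letters GTTGCCAT, on both strands, lay in 0.695%, 2.68%, 1.17% and 1.54%. These are counts of letters in a window and say nothing of binding.

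Windows of 4 genes that ranked higher in microglia are shown, a marker protease (Ctss), a complement chain (C1qc), the inflammasome adaptor (Pycard†) and an NF-κB subunit (Rel), because they carry the searched letters; capitals mark GAGGAAGT or its reverse complement ACTTCCTC, and each window is written 5′ to 3′ on the gene's strand. 
Ctss (chr3:95526536-95526835, forward strand): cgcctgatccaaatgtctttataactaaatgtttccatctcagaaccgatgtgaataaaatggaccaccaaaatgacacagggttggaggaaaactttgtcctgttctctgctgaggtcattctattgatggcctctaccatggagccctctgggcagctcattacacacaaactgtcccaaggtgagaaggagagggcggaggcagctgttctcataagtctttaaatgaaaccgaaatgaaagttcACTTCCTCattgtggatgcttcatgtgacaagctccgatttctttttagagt
C1qc (chr4:136892865-136893164, reverse strand): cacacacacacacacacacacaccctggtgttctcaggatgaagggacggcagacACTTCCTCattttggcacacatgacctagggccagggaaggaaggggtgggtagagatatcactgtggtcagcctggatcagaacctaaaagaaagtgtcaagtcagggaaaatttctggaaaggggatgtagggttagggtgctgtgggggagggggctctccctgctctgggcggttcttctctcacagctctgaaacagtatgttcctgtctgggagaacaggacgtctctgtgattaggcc
Pycard (chr7:127993818-127994117, reverse strand): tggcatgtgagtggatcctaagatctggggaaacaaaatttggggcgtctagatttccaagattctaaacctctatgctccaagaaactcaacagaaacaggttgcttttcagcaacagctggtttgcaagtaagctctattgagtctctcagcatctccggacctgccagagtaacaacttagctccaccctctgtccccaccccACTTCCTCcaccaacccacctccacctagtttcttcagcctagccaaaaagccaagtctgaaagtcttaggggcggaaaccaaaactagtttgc
Rel (chr11:23770920-23771219, reverse strand): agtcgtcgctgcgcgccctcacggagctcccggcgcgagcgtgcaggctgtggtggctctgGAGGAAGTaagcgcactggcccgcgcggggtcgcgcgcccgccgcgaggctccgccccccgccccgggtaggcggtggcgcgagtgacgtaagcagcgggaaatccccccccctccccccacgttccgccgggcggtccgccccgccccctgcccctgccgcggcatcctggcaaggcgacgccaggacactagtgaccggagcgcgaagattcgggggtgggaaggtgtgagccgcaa

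TNF and 1 of its receptors were higher in microglia, and the other receptor was not. Tnf itself stood at 2.69, 2.80, 3.21 and 2.70 in microglia and 0.13, 0.16 and 0.29 in astrocytes, with no overlap. Tnfrsf1a, the receptor that carries the death domain, stood at 6.31, 6.35, 6.40 and 6.47 in microglia and 6.49, 6.46 and 6.42 in astrocytes, with overlapping ranges and ranks 0.9 points apart. Tnfrsf1b, which lacks a death domain (ENSMUSG00000028599, GRCm38 chr4:145213463-145246870), stood at 8.61, 8.62, 8.54 and 8.58 in microglia and 2.02, 1.74 and 2.20 in astrocytes, 80.4 points apart. Its astrocyte FPKM was 0.774% of the microglial one and that of Tnf 2.30%, and the part of microglial RNA in these astrocyte values was not tested.

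Other receptors of the TNF family were split. Of 13 shared members of the list, which includes Tnf, 3 ranked higher in microglia and 4 in astrocytes, and the median log2 value was 2.26 in microglia and 3.79 in astrocytes. Fas†, the death receptor for Fas ligand, had a mean of 1.67 ± 0.26 in microglia and stood at 6.04, 6.10 and 6.14 in astrocytes. Tnfrsf12a, the receptor of the cytokine TWEAK, stood at 3.37, 3.30, 3.27 and 3.42 in microglia and 8.17, 7.85 and 8.08 in astrocytes. With Tnfrsf1a these were the 3 members with the highest astrocyte means. Tnfrsf10b, the mouse TRAIL receptor, stood at 0.33, 0.09, 0.31 and 0.39 in microglia and 3.86, 3.69 and 3.81 in astrocytes, and Tnfrsf19†, an orphan member, at -0.02, 0.20, 0.08 and 0.12 in microglia and 4.99, 4.99 and 5.14 in astrocytes. In all 4 every astrocyte library lay above every microglial library. Cd40, the co-stimulatory receptor of myeloid cells, was called higher in microglia with 1.56, 1.99, 1.71 and 1.43 in microglia and 1.17, 1.53 and 0.83 in astrocytes, a low level in both with overlapping log2 ranges, and its call was lost under 6 of 22 other settings. Ltbr, the lymphotoxin receptor, stood at 5.50, 5.43, 5.46 and 5.63 in microglia and 4.81, 4.60 and 4.63 in astrocytes and was not called. The differences of the remaining 4 shared members ran from -17.0 to 22.2 points, and Tnfrsf11a (RANK) was listed in the microglial table only, at 4.27, 4.22, 4.36 and 4.33.

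The complex that forms on TNFR1 showed fewer calls. All 21 genes of receptor complex I, the linear ubiquitin ligase and the IKK kinases were shared, 16 were not called, 5 ranked higher in microglia and 0 in astrocytes. Among all 6030 shared genes between 2 and 6 in both tables, the range of most genes of this list, of the necrosome list and of the BCL-2 family, 775 ranked higher in microglia and 263 in astrocytes, so astrocyte calls are the fewer at these levels in general. Tradd, the adaptor that binds the receptor, stood at 4.20, 4.06, 4.23 and 4.17 in microglia and 2.77, 2.59 and 2.54 in astrocytes. Birc3, one of the ubiquitin ligases that Smac mimetics remove, stood at 4.66, 4.65, 4.61 and 4.41 in microglia and 1.86, 1.68 and 2.12 in astrocytes. Rnf31†, the catalytic subunit of the linear ligase, stood at 4.33, 4.35, 4.23 and 4.30 in microglia and 2.90, 2.73 and 2.73 in astrocytes. In these 3 the libraries of the cell types did not overlap, and the widest gap was that of Birc3. Tnfaip3 (A20), a deubiquitinase that restrains NF-κB, stood at 2.79, 2.91, 2.99 and 2.85 in microglia and 1.25, 1.47 and 1.52 in astrocytes, and its partner Tnip1† at 4.21, 4.30, 4.26 and 4.30 in microglia and 3.28, 2.99 and 3.22 in astrocytes. Birc2, the close relative of Birc3, stood at 3.39, 3.38, 3.30 and 3.06 in microglia and 3.91, 4.12 and 4.14 in astrocytes, -1.5 points apart. Ripk1† lay 21.5 points towards microglia, under the limit, at percentile 85.1 against 63.6, with 5.25, 5.21, 5.14 and 5.21 in microglia and 4.24, 4.31 and 4.31 in astrocytes. The other 14 members differed by between -9.8 (Chuk, an IKK kinase, 3.64, 3.72, 3.77 and 3.46 in microglia and 4.66, 4.87 and 4.82 in astrocytes) and 23.1 points (Traf5†, an adaptor and ubiquitin ligase, 1.89, 1.88, 1.82 and 2.03 in microglia and 1.56, 1.74 and 1.83 in astrocytes).

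Among the 11 genes of the necrosome and the caspase-8 complex, 4 ranked higher in microglia, 7 were not called and 0 ranked higher in astrocytes. Mlkl†, the effector of necroptosis (ENSMUSG00000012519, GRCm38 chr8:111311797-111338177), stood at 3.16, 3.19, 3.19 and 3.05 in microglia and 1.20, 0.84 and 0.84 in astrocytes, at percentiles 55.4 and 4.1. Its astrocyte FPKM was 12.0% of the microglial one. Zbp1, a sensor of Z-form nucleic acids that binds RIPK3, stood at 5.59, 5.46, 5.63 and 5.61 in microglia and 1.52, 1.72 and 1.43 in astrocytes, a wider gap than that of Mlkl (76.5 against 51.3 points). Casp8†, the protease that cuts RIPK1 and RIPK3, stood at 4.93, 4.94, 5.10 and 5.02 in microglia and 3.56, 3.63 and 3.75 in astrocytes. Fadd†, which joins caspase-8 to the complex, stood at 2.78, 2.79, 2.59 and 2.62 in microglia and 1.99, 2.07 and 1.91 in astrocytes. In all 4 the libraries of the cell types did not overlap, but when both tables were given the same distribution and a difference of 2 log2 units was required, Casp8 and Fadd were not called.

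Ripk3, the kinase that acts on MLKL, was not called. It stood at 2.02, 2.24, 2.21 and 2.29 in microglia and 2.09, 2.15 and 1.97 in astrocytes, ranges that overlap on the deposited scales, and the ranks were 21.4 points apart, since a log2 value of 2 stands at percentile 38.4 in the microglial table and 18.5 in the astrocyte table. Ticam1, which leads from Toll-like receptor 3 to RIPK3, stood at 3.48, 3.53, 3.28 and 3.42 in microglia and 3.14, 3.07 and 2.91 in astrocytes. Cflar, the inhibitory partner of caspase-8, stood at 4.30, 4.28, 4.08 and 4.09 in microglia and 4.43, 4.40 and 4.58 in astrocytes. Neither was called, with 23.6 and 4.4 points. Diablo†, the natural antagonist of the ubiquitin ligases that Smac mimetics copy, stood at 4.09, 4.11, 4.12 and 4.07 in microglia and 5.47, 5.39 and 5.51 in astrocytes, so that every astrocyte library lay higher, with -13.0 points. Xiap, an inhibitor of caspases, stood at 4.42, 4.43, 4.54 and 4.38 in microglia and 4.09, 4.09 and 4.31 in astrocytes.

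Of 10 NF-κB subunits and inhibitors, 9 were called higher in microglia, with a median percentile of 83.3 in microglia and 34.0 in astrocytes, and Rela lay 20.3 points the same way. With matched distributions and 2 log2 units required 7 were called, without Nfkb1† and Nfkbia, and both were also not called when genes of 1 table were ranked lowest in the other. Rel, one of the genes whose promoter is printed above, stood at 3.24, 3.27, 3.17 and 2.92 in microglia and 0.92, 0.92 and 0.85 in astrocytes. Relb stood at 4.82, 4.99, 5.03 and 4.95 in microglia and 3.00, 2.81 and 2.72 in astrocytes and Nfkb2†, its partner in the noncanonical pathway, at 5.82, 5.81, 5.88 and 5.75 in microglia and 3.34, 3.35 and 3.24 in astrocytes. No library of one cell type reached those of the other. The inhibitors Nfkbia, Nfkbib† and Nfkbie had means of 5.45 ± 0.14, 5.10 ± 0.091 and 3.85 ± 0.20 in microglia and 4.06 ± 0.25, 3.00 ± 0.12 and 1.94 ± 0.087 in astrocytes. The astrocyte FPKM of the 9 genes was 11.0% (Rel) to 39.3% (Nfkbiz) of the microglial one.

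**Figure D3:**
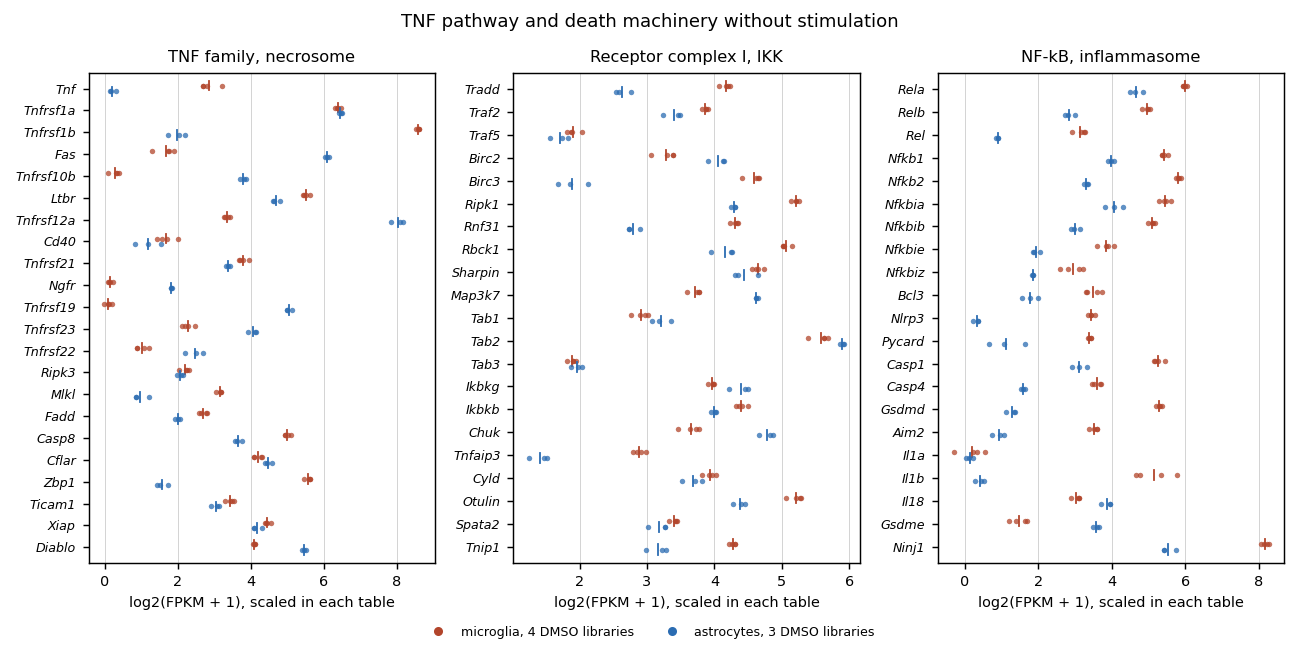
log2(FPKM + 1) in each DMSO library (red, 4 microglial; blue, 3 astrocyte; bars mark means) for TNF family receptors and necrosome genes, receptor complex I and IKK genes, and NF-κB and inflammasome genes. Each table has its own scale; Tnfrsf1b, Zbp1, Mlkl, Rel and Gsdmd lie apart with the microglial libraries higher, Fas and Tnfrsf12a with the astrocyte libraries higher, and the libraries of Tnfrsf1a and Ripk3 overlap.

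Of 11 shared inflammasome genes, 7 ranked higher in microglia, and the median percentile was 61.6 in microglia and 8.2 in astrocytes. The sensor Nlrp3 stood at 3.35, 3.55, 3.45 and 3.43 in microglia and 0.24, 0.37 and 0.36 in astrocytes, and the cytokine gene Il1b† at 4.67, 4.76, 5.79 and 5.35 and 0.29, 0.44 and 0.53. Gsdmd, whose cut product forms the pores of pyroptosis, had 5.29 ± 0.065 and 1.27 ± 0.14, and the adaptor Pycard, shown above by its promoter, had 3.39 ± 0.039 and 1.12 ± 0.49. Aim2†, Casp1 and Casp4 were the other members called. Gsdme†, a relative of Gsdmd, had 1.49 ± 0.24 and 3.58 ± 0.073 (-15.7 points), Il18† had 3.04 ± 0.10 and 3.88 ± 0.14, and Il1a† was near 0 in both (0.20 ± 0.36 and 0.13 ± 0.10). Ninj1, which ruptures the membrane of dying cells, was high in both, with percentiles 98.2 and 84.9.

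Of 12 shared genes of the BCL-2 family, most of which promote cell death, 5 ranked higher in microglia and 0 in astrocytes, and these were Bcl2l11 (BIM, 5.45 ± 0.15 in microglia and 2.17 ± 0.13 in astrocytes), Bmf (4.55 ± 0.091 and 1.85 ± 0.14), Bbc3 (PUMA, 4.02 ± 0.12 and 2.10 ± 0.036), Pmaip1 (NOXA, 29.8 points) and, at the limit, Bak1†. The Bak1 call was lost under 8 of 22 other settings, among them without microglial replicate 1 or 4 and without astrocyte replicate 2 or 3, and that of Pmaip1 under 4. The protective members Bcl2†, Bcl2l1 and Bcl2l2† differed by -12.9, -9.3 and -8.4 points and were not called. Bad† and Bid†, which promote death, differed by 4.5 and 16.4 points and were not called either. Bax† (percentiles 96.7 and 94.2) and Mcl1 (97.3 and 94.3) were high in both.

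Toll-like receptors and their adaptors ranked higher in microglia in 13 of 15 shared genes and in astrocytes in 0. Tlr7, Tlr8 and Tlr13, endosomal sensors of RNA, were furthest apart in rank. Tlr7 stood at 6.40, 6.42, 6.58 and 6.41 in microglia and 0.94, 1.00 and 1.01 in astrocytes, Tlr8 at 5.75, 5.70, 6.09 and 6.01 in microglia and 0.71, 0.72 and 0.72 in astrocytes and Tlr13 at 6.67, 6.61, 6.94 and 6.83 in microglia and 1.07, 1.20 and 1.21 in astrocytes. Tlr2, a receptor for bacterial lipopeptides, stood at 6.79, 6.83, 7.08 and 6.76 in microglia and 1.73, 1.83 and 1.73 in astrocytes, and Tlr4, the endotoxin receptor, at 4.48, 4.46, 5.00 and 4.89 in microglia and 1.89, 1.92 and 1.98 in astrocytes. No library of one cell type reached those of the other for these 5. As a share of the microglial FPKM, the astrocyte FPKM was 0.376% for the endotoxin co-receptor Cd14, 0.755% for the chaperone Unc93b1 and 2.08% for Tlr2, and 11.2% for Tlr4, 17.3% for Ly96 and 20.9% for the adaptor Myd88†. Tlr3†, the sensor of double-stranded RNA, was one of the 2 not called, with 2.61, 2.70, 2.84 and 2.66 in microglia and 3.67, 3.81 and 3.87 in astrocytes, the larger values being those of astrocytes. Irak1† was the other (3.4 points). The other 4 receptors of the list, Tlr1, Tlr5, Tlr6 and Tlr9, were listed in the microglial table only, with means of 3.58 ± 0.25, 0.27 ± 0.10, 2.74 ± 0.20 and 4.53 ± 0.088.

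Among cytosolic sensors of nucleic acids and the kinases and factors below them, 5 of 9 ranked higher in microglia and 0 in astrocytes. Ddx58 (RIG-I), Mavs, Irf3† and Tbk1 were not called, with 13.6, 8.3, -0.2 and 21.4 points. Tmem173, the gene of STING, had 4.99 ± 0.086 in microglia and 2.29 ± 0.080 in astrocytes, and Ifih1 (MDA5), Dhx58†, the kinase Ikbke† and Irf7† were the others called. Irf7, the amplifier of interferon production, was the most abundant of them at 9.28 ± 0.066, against 2.60 ± 0.17 in astrocytes (0.818% of the microglial FPKM).

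Of 21 shared cytokine receptors, 11 ranked higher in microglia and 2 in astrocytes. The astrocyte share was no larger than the 12.7% of all shared genes. Beside Csf1r, the microglial side held the GM-CSF receptor chains Csf2rb†, at 6.66, 6.65, 6.56 and 6.61 in microglia and 1.09, 1.00 and 1.00 in astrocytes, and Csf2ra, at 6.05, 6.13, 5.99 and 6.20 in microglia and 2.55, 3.28 and 2.40 in astrocytes. It also held the TGF-β receptors Tgfbr1, at 6.84, 6.90, 6.87 and 6.70 in microglia and 2.65, 2.75 and 2.90 in astrocytes, and Tgfbr2, at 6.17, 6.08, 6.00 and 6.07 in microglia and 4.50, 4.24 and 4.38 in astrocytes. The astrocyte FPKM of Tgfbr2 was 29.6% of the microglial one, and that of Csf2rb 1.07%. Il4ra†, which binds interleukins 4 and 13, stood at 4.96, 4.98, 4.76 and 4.88 in microglia and 2.10, 2.23 and 2.09 in astrocytes, and Il21r at 3.83, 3.87, 3.74 and 3.47 in microglia and 1.05, 0.61 and 0.60 in astrocytes, and the remaining 4 on this side, among them the interferon-γ receptor chain Ifngr2, were 33.5 to 39.3 points apart.

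On the astrocyte side, Osmr, the receptor of oncostatin M, stood at 0.16, 0.04, 0.28 and 0.41 in microglia and 5.27, 5.48 and 5.59 in astrocytes. Il1r1†, the receptor of interleukin 1, stood at 0.09, 0.11, 0.15 and 0.11 in microglia and 3.04, 3.06 and 3.18 in astrocytes. Both were close to 0 in every microglial library, but Il1r1 was not called when the distributions were matched or when astrocyte values were put on the microglial exon length. Il1rap†, the second chain of the interleukin 1 receptor, stood at 1.98, 2.07, 2.37 and 2.23 in microglia and 4.13, 4.25 and 4.38 in astrocytes, -22.5 points apart, and Il6st, the chain shared by receptors of the interleukin 6 family, at 3.89, 3.85, 4.06 and 3.98 in microglia and 5.97, 5.86 and 6.10 in astrocytes, -20.9 points apart. Neither reached the limit. The interferon receptor chains Ifnar1, Ifnar2† and Ifngr1 were higher in rank in microglia by up to 23.7 points, also under the limit.

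Several ligands were higher in the cell type that ranked lower for the receptor. Csf1 stood at 6.54, 6.46 and 6.44 in astrocytes and 1.85, 1.87, 1.61 and 1.74 in microglia, against the opposite order for Csf1r. Cx3cl1 stood at 5.20, 5.14 and 4.91 in astrocytes and 2.17, 2.04, 1.73 and 1.02 in microglia. Its receptor Cx3cr1 stood at 7.96, 7.97, 7.98 and 8.00 in microglia and 1.96, 1.82 and 2.09 in astrocytes. Il1b and Il1r1 were opposed in the reverse sense, with the ligand in microglia and the receptor in astrocytes. Il34†, the second ligand of Csf1r, was low in both (-0.07 ± 0.14 in microglia and 1.72 ± 0.024 in astrocytes). TGF-β isoforms were divided, with Tgfb1 higher in microglia (7.11 ± 0.049 and 3.10 ± 0.020) and Tgfb2† (0.01 ± 0.17 and 3.61 ± 0.099) and Tgfb3† (2.14 ± 0.087 and 6.08 ± 0.072) higher in astrocytes. These are RNA levels of separate cultures and no signal between cells was measured.

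Of 17 shared growth factors and cytokines, 7 ranked higher in astrocytes and 3 in microglia. Cntf†, an injury factor of glia, stood at 6.54, 6.53 and 6.53 in astrocytes and 0.48, 0.22, 0.29 and 0.18 in microglia. Fgf2† (5.07 ± 0.13 in astrocytes), Lif (3.49 ± 0.11) and Vegfa (5.04 ± 0.29) completed the astrocyte side with Csf1, Tgfb2 and Tgfb3. Igf1†, a survival factor, stood at 8.38, 8.38, 8.41 and 8.56 in microglia and 3.36, 3.65 and 3.56 in astrocytes, and Pdgfb† was the third on the microglial side. The Vegfa call was lost under 6 of 22 other settings and that of Pdgfb under 4, matched distributions among them for both. Il6 was near 0 in both (-0.37 ± 0.45 in microglia, 0.41 ± 0.10 in astrocytes).

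**Figure D4:**
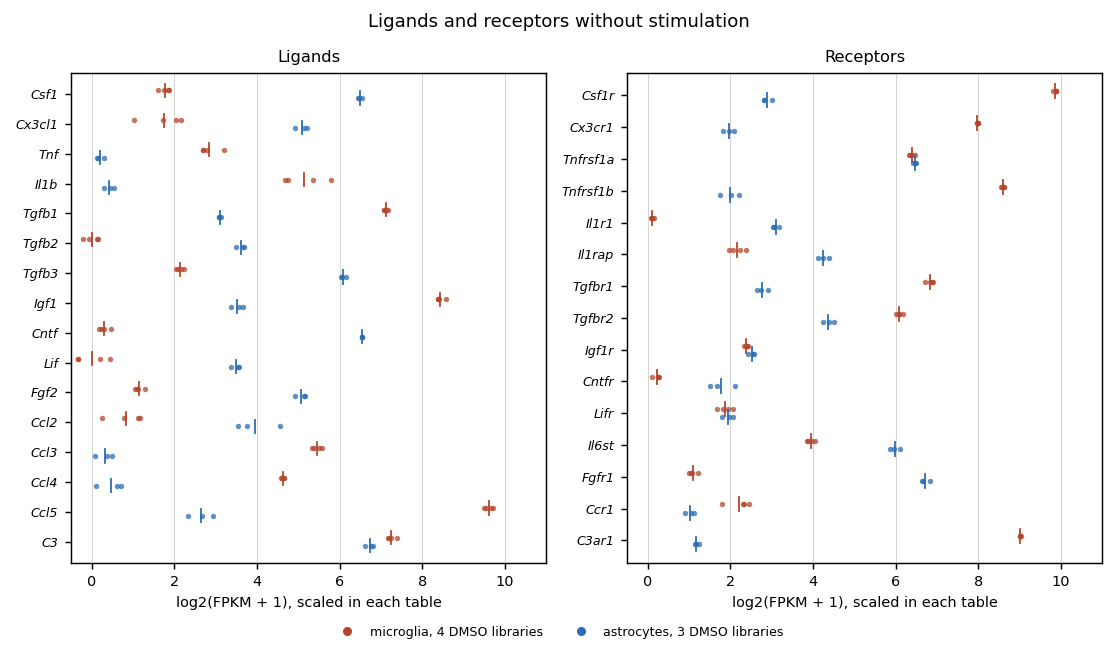
log2(FPKM + 1) in each DMSO library (red, 4 microglial; blue, 3 astrocyte; bars mark means) for 16 ligands and 15 receptors, each table on its own scale. Csf1, Cx3cl1, Cntf and Ccl2 are higher in astrocytes, Il1b, Igf1, Tgfb1, Ccl3, Ccl4 and Ccl5 in microglia, and the receptors Csf1r, Cx3cr1, Tnfrsf1b and C3ar1 lie far apart with microglia higher.

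Receptors for growth factors, Notch ligands and endothelin favoured astrocytes, with 8 of 15 called there and 1 in microglia. The microglial share was below the 11.5% of all shared genes. Ntrk2†, the receptor of BDNF, stood at 0.49, 0.33, 0.59 and 0.50 in microglia and 8.36, 8.27 and 8.42 in astrocytes, the widest gap of the list. The FGF receptors Fgfr1†, Fgfr2† and Fgfr3† stood at 1.07, 1.01, 1.06 and 1.21 in microglia and 6.83, 6.67 and 6.63 in astrocytes, at 0.24, 0.03, 0.14 and 0.22 in microglia and 5.41, 5.60 and 5.43 in astrocytes and at 0.40, 0.19, 0.21 and 0.35 in microglia and 4.80, 4.57 and 4.53 in astrocytes. Ednrb, a receptor of endothelin, stood at 2.48, 2.26, 2.51 and 2.06 in microglia and 6.90, 7.06 and 7.11 in astrocytes. All of these were under 3 in every microglial library. Met, the receptor of hepatocyte growth factor, and the BMP receptors Bmpr1a† and Bmpr1b were the other 3, with -34.5, -27.5 and -29.1 points, and Notch2† was the 1 in microglia, at 4.73, 4.59, 4.57 and 4.70 in microglia and 3.58, 3.68 and 3.60 in astrocytes. Of 22 other settings, the Bmpr1a call was lost under 6 and those of Bmpr1b and Notch2 under 4 each, matched distributions among them and, for Bmpr1b, the Nec-1s libraries.

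Of the 10 shared genes that handle glutamate, GABA and potassium, 5 ranked higher in astrocytes, with the potassium channel Kcnj10 at a mean of 1.33 ± 0.12 in microglia and 7.79 ± 0.082 in astrocytes. Gria1, a subunit of AMPA receptors, stood at 0.10, -0.08, 0.04 and 0.04 in microglia and 4.70, 4.67 and 4.59 in astrocytes. Kcnn4, a calcium-activated potassium channel of immune cells, ranked higher in microglia, at 3.92, 3.82, 3.86 and 4.05 in microglia and 0.80, 1.72 and 0.95 in astrocytes. Purinergic genes differed by receptor. P2ry6†, a UDP receptor linked to phagocytosis, stood at 6.61, 6.69, 6.62 and 6.70 in microglia and 1.66, 1.74 and 1.07 in astrocytes, and its astrocyte FPKM was 1.81% of the microglial one. The ATP channels P2rx4 and P2rx7† stood at 7.54, 7.47, 7.49 and 7.59 in microglia and 4.19, 4.05 and 4.13 in astrocytes and at 4.69, 4.50, 4.54 and 4.79 in microglia and 3.37, 3.54 and 3.35 in astrocytes. Their astrocyte FPKM was 8.99% and 40.8% of the microglial one. Entpd1† (CD39), an enzyme that degrades ATP, stood at 5.57, 5.65, 5.72 and 5.79 in microglia and 1.75, 2.36 and 1.69 in astrocytes, and with P2ry12 and P2ry14†, at 1.35, 1.38, 1.13 and 1.29 in microglia and 0.73, 0.78 and 1.33 in astrocytes, it was among 6 of 11 shared members on the microglial side. The P2ry14 call was lost under 7 of 22 other settings. Adora1†, a receptor of adenosine, was the 1 on the astrocyte side, at 0.11, 0.05, 0.13 and 0.16 in microglia and 3.84, 3.67 and 3.79 in astrocytes. As 1 of 11 it was a smaller share than the 12.7% of all shared genes.

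Receptors for uptake and chemotaxis were mostly microglial. Of 17 shared Fc and phagocytic receptors, 10 ranked higher in microglia and 1 in astrocytes, where the share was below the 12.7% of all shared genes. Fcgr3†, an activating Fc receptor, stood at 7.90, 7.86, 8.06 and 8.21 in microglia and 2.46, 2.41 and 2.49 in astrocytes. Fcgr2b†, the inhibitory one, stood at 6.72, 6.57, 6.27 and 6.26 in microglia and 2.14, 2.03 and 1.31 in astrocytes. Cd36, a scavenger receptor for lipids, stood at 9.19, 9.24, 9.44 and 9.30 in microglia and 2.98, 3.05 and 2.97 in astrocytes. The lowest microglial library was above the highest astrocyte library by at least 4 log2 units in each. Mertk†, which recognises dying cells, stood at 5.03, 5.02, 5.08 and 5.16 in microglia and 1.66, 2.06 and 1.99 in astrocytes, whereas its relative Axl was alike in rank (6.0 points), at 6.29, 6.33, 6.43 and 6.45 in microglia and 5.89, 5.78 and 5.75 in astrocytes. Megf10, an engulfment receptor of astrocytes, was the 1 on the astrocyte side, at 0.33, 0.07, 0.20 and 0.26 in microglia and 3.44, 3.48 and 3.59 in astrocytes.

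Of 8 shared chemotactic receptors, 6 ranked higher in microglia and 1 in astrocytes, the latter near the 12.7% of all shared genes. C3ar1, a receptor of the complement fragment C3a, stood at 9.03, 9.00, 9.01 and 9.00 in microglia and 1.24, 1.14 and 1.16 in astrocytes. Its lowest microglial library was above every astrocyte library. Ackr3, which removes Cxcl12, stood at 0.13, 0.28, 0.20 and 0.15 in microglia and 3.78, 3.63 and 3.49 in astrocytes and was the 1 on the astrocyte side, and Cxcr4, the signalling receptor of Cxcl12, was not called (16.0 points), at 7.54, 7.42, 7.23 and 7.31 in microglia and 5.42, 5.08 and 5.19 in astrocytes.

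Of 15 shared chemokines, 6 ranked higher in microglia and 2 in astrocytes, the latter near the 12.7% of all shared genes. Ccl3 stood at 5.39, 5.58, 5.50 and 5.34 in microglia and 0.38, 0.08 and 0.49 in astrocytes, Ccl4 at 4.60, 4.59, 4.65 and 4.65 in microglia and 0.70, 0.10 and 0.62 in astrocytes and Ccl5 at 9.70, 9.50, 9.65 and 9.55 in microglia and 2.93, 2.67 and 2.32 in astrocytes. These 3 chemokines attract T cells and monocytes. With Ccl9, Cxcl16† and Cxcl2 these were the 6 on the microglial side. Ccl2† stood at 3.76, 3.54 and 4.56 in astrocytes and 0.25, 0.79, 1.11 and 1.16 in microglia and was called higher in astrocytes with Cx3cl1. Its 3 astrocyte libraries had an SD of 0.535, and the call was lost without astrocyte replicate 3 and in the Nec-1s libraries (-19.2 points). Cxcl10† and Cxcl14 differed by 0.7 points each.

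Complement genes ranked higher in one cell type or the other, gene by gene. Microglia ranked higher for 7 of 14 genes, among them the C1q chains, C2† (5.81 ± 0.076 and 1.83 ± 0.18), Cfb† (5.61 ± 0.033 and 0.82 ± 0.18) and properdin Cfp (6.58 ± 0.053 and 2.07 ± 0.079). Astrocytes ranked higher for C4b (5.35 ± 0.035 against 0.75 ± 0.092), the C1 protease C1s1†, the C1 inhibitor Serping1 (5.76 ± 0.070 against 0.10 ± 0.18) and the membrane regulators Cd55† and Cd59a, 5 of 14. C3†, the central component, stood at 7.38, 7.25, 7.20 and 7.17 in microglia and 6.61, 6.76 and 6.81 in astrocytes, 2.1 points apart.

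Antigen presentation and interferon genes were higher in microglia where they were called. Of 13 shared genes of antigen presentation 5 were called, all in microglia (8 when the distributions were matched), among them the peptide transporter Tap1† (6.12 ± 0.055 and 3.35 ± 0.21) and Cd74†. The class I genes B2m, H2-K1 and H2-D1 were at the top of both rankings and not called, but their log2 values differed (12.46 ± 0.090 and 9.20 ± 0.043, 11.29 ± 0.009 and 6.65 ± 0.15, 11.63 ± 0.042 and 6.67 ± 0.085). The class II genes H2-Aa, H2-Ab1 and H2-Eb1† were under 2 in both. Of 18 interferon-stimulated genes 9 ranked higher in microglia and 0 in astrocytes (5 of 18 when the distributions were matched), led by Oas1a (6.79 ± 0.046 and 1.75 ± 0.13), whereas Ifit3 (5.66 ± 0.15 and 5.36 ± 0.12) and Irgm1 (5.55 ± 0.15 and 5.13 ± 0.21) differed by 6.7 and 8.9 points.

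Both cell types expressed genes that are linked to activated states. Of 12 shared disease-associated microglia genes, 4 ranked higher in microglia (7 when the distributions were matched), Clec7a, Gpnmb (9.29 ± 0.056 and 3.86 ± 0.012), Lpl (8.49 ± 0.030 and 3.06 ± 0.17) and Igf1, and Csf1 ranked higher in astrocytes. Spp1† (osteopontin) was high in both, with 10.36, 10.37, 10.41 and 10.47 in microglia and 8.48, 8.42 and 8.56 in astrocytes, as was Cd9† (7.42 ± 0.10 and 8.49 ± 0.076). Of 18 genes linked to reactive astrocytes, 8 ranked higher in astrocytes, among them Serpina3n (7.01 ± 0.061 against 1.80 ± 0.075), Timp1† (6.83 ± 0.083 against 2.87 ± 0.092), Ptx3† (6.08 ± 0.14 against 0.22 ± 0.27) and S1pr3 (7.76 ± 0.043 against 0.12 ± 0.17). H2-T23† and Srgn, from the same list, ranked higher in microglia (8.97 ± 0.075 against 3.75 ± 0.10 and 7.66 ± 0.054 against 3.60 ± 0.079).

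Lysosomal genes lay at the top of both tables. Of 14, only Cd68, a macrophage glycoprotein, was called (9.91 ± 0.056 in microglia and 3.33 ± 0.18 in astrocytes), and the median percentile was 99.8 in microglia and 96.1 in astrocytes. On the log2 scale the gap was wider, and after both tables had been given the same distribution 9 of the 14 differed by at least 2 log2 units with no overlap. Grn† (progranulin) was such a gene, with 11.04, 11.04, 11.12 and 11.21 in microglia and 5.76, 5.53 and 5.43 in astrocytes. Of 18 shared genes of cholesterol and lipid handling, 5 ranked higher in microglia and 2 in astrocytes, the latter no larger a share than the 12.7% of all shared genes. The synthesis enzyme Sqle (7.18 ± 0.10 against 4.10 ± 0.11) was one of those ranking higher in astrocytes, and the lipid hydrolase Lipa, the exporter Npc1†, the receptor Nr1h3†, Ch25h† and Lpl in microglia. Of these, Sqle was not called without microglial replicate 4, Sqle, Lipa and Npc1 were not called in the Nec-1s libraries, and Lpl was called under every setting.

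Extracellular matrix genes ranked higher in astrocytes in 14 of 16 cases and in microglia in 0. Sparc had 10.99 ± 0.075 in astrocytes and 3.53 ± 0.095 in microglia, tenascin Tnc† 6.83 ± 0.069 and 2.33 ± 0.13, and the collagen Col4a1† 6.59 ± 0.14 and 1.69 ± 0.15. The summed FPKM of the fibroblast and mural list, which shares 3 collagens with this one, was also higher in astrocytes, as given above, and its part in this result was not tested. Of 10 proliferation genes, 5 ranked higher in astrocytes, Top2a† (5.22 ± 0.13 against 1.42 ± 0.063), Cdk1, Ccnb1, Ccna2† and Birc5, while the replication genes Mcm2, Mcm5 and Pcna differed by -4.2, 2.8 and 0.9 points. Of 12 housekeeping genes 11 were not called and Polr2a ranked higher in microglia (31.1 points), no larger a share than the 11.5% of all shared genes. The median percentiles of this list were 98.0 in microglia and 99.3 in astrocytes. Ranks compress there, so the count does not show that these genes were alike.

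**Figure D5:**
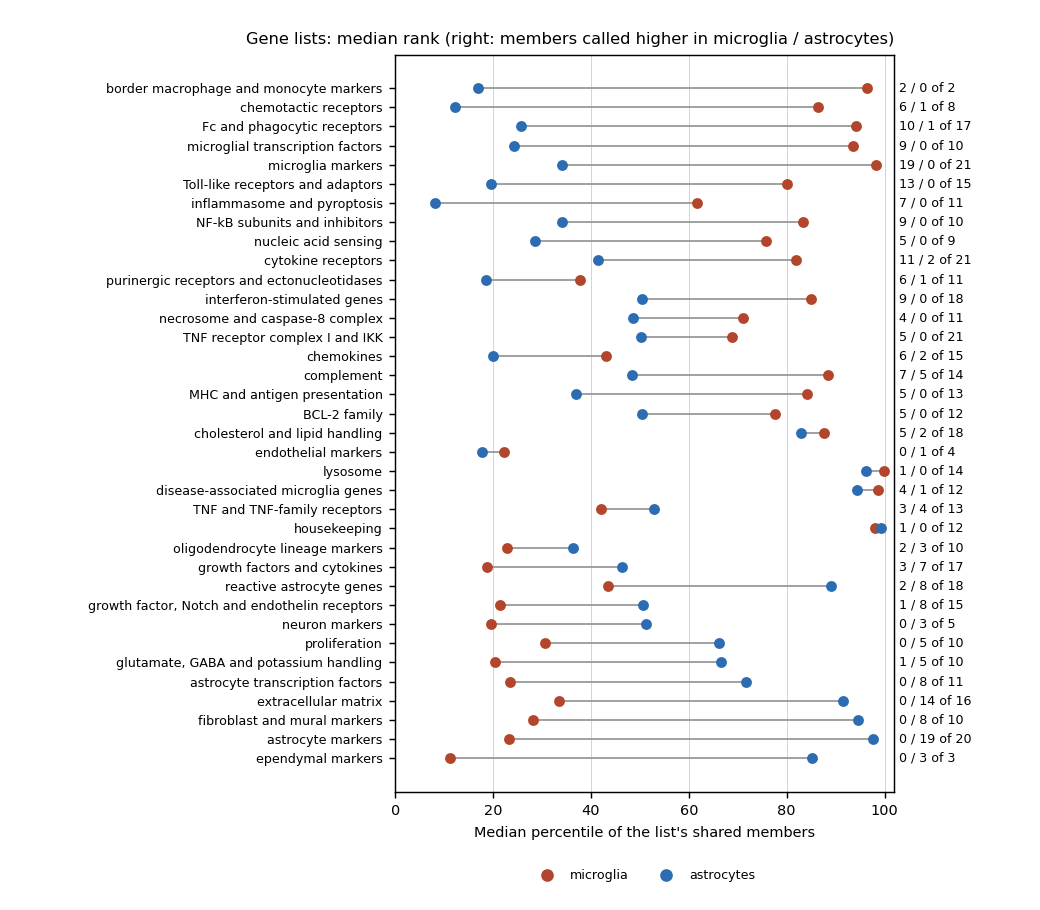
Median percentile of each gene list's shared members in microglia (red) and astrocytes (blue), with the number of members called higher in microglia and in astrocytes of all shared members at the right. Lists are ordered by the median difference; lysosome, housekeeping and disease-associated microglia genes have both medians above 90, NF-κB genes lie at 83.3 and 34.0, and ependymal markers at 11.2 and 85.1.

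The differences were then read in other treatments of the same tables. In the libraries treated with the RIPK1 inhibitor Nec-1s alone (4 and 3 libraries), 1468 genes (11.1%) ranked higher in microglia and 1659 (12.6%) in astrocytes, and 93.0% and 95.0% of the calls made in DMSO were made again. TNF, a Smac mimetic and zVAD together trigger necroptosis in microglia, whereas the study reports that astrocytes did not undergo it. After this stimulus 1272 genes (9.63%) ranked higher in microglia and 1404 (10.6%) in astrocytes. Of the DMSO calls, 69.2% and 73.6% were made again, and 1 gene called in DMSO was called in the other direction. The markers were called as often as in DMSO, with 19 of 21 microglia markers and 19 of 20 astrocyte markers.

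NF-κB members called higher in microglia numbered 9 of 10 in DMSO and 1 of 10 after the stimulus, where the median percentiles were 95.0 and 89.5. Interferon-stimulated genes numbered 9 of 18 in DMSO and 1 of 18 after the stimulus, with median percentiles of 84.7 and 83.1, and 12 of 18 in the Nec-1s libraries. At such percentiles ranks compress, and the differences between these counts were not tested. Tlr2 went from 80.6 points in DMSO to 1.8 after the stimulus, with percentiles 99.0 in microglia and 97.2 in astrocytes. Mlkl went from 51.3 to 23.7 points, with mean log2 values of 2.89 in microglia and 2.60 in astrocytes after the stimulus, and was not called. Ripk3 went from 21.4 to 28.9 points and passed the limit, with log2 means of 1.85 and 1.32, in the range where the same value ranks higher in the microglial table. Tnf (65.2 points), Tnfrsf1b (39.5) and Zbp1 (43.8) remained called higher in microglia, and Csf1 (-36.1) higher in astrocytes. Percentiles of different treatments come from different libraries, and changes between treatments were not tested here.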

How the data were processed

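RNA libraries of cultured mouse microglia (6 treatments) and astrocytes (4 treatments) were sequenced after polyA selection, the microglial ones by Genewiz and the astrocyte ones, strand-specific, by BGI. The study's methods differ here, since they name BGI sequencing for both cell types. The authors deposited log2(FPKM + 1) values per gene, made with OmicSoft Array Studio and scaled to a common 75th percentile within each table (4.14 to 4.16 in microglia, 4.74 in astrocytes); aligner and gene model are not given in the sources used here. In the microglial table the gene means of replicates 1 to 3 equalled those of replicate 4 within 6.67e-05, so these replicates were adjusted before deposit (up to 624 values per DMSO library are below 0).

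Only DMSO libraries entered the comparison (4 and 3). Symbols occurring once in each annotation were joined (13201 of 13203 had the same Ensembl identifier), averaged on the log2 scale and ranked within each table; no test was made, and replicate numbers pair no libraries. The deposited values hold no counts. Steps between low values, read on the scaled values, corresponded to 20.9 M in microglial replicate 4 and 21.7 to 22.5 M in the astrocyte libraries, without settling whether these are reads or fragments, and gave no depth in microglial replicates 1 to 3. A large difference was 25 percentile points with no overlap of libraries. Genes were named from 36 lists, the 12 largest differences each way and the 10 most abundant genes of each table, and among genes of 1 table only. Values of some single genes are not reported here, although list counts and medians include them. Members and lists were chosen with earlier results of these data known. Ranks were computed with pandas 2.3.3 and numpy 2.4.6 under Python 3.11.15, and the ranking was tested on simulated tables. Alternatives were another scale, gene set, filter, pseudocount, average, limit or set of libraries, and each library left out.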

Additional observations from a re-analysis of the deposited data

Results flagged for a closer look

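In the 4 microglial DMSO libraries, 13 of the 304 named genes that this table lists (4.28%) had 1 library far from the other 3 (Dixon's ratio above its 95% critical value), and chance alone marks about 1 in 20 groups. The library was replicate 4 in 8 genes, replicate 1 in 2, replicate 3 in 2 and replicate 2 in 1. Replicate 4 is the library to whose gene means the others had been adjusted. It was highest for Igf1 at 8.56 (next 8.41), Ftl1 at 13.61 (next 13.51), H2-D1 at 11.69 (next 11.61) and mt-Atp8 at 7.04 (next 6.17). It was lowest for Ifih1 at 3.74 (next 4.06), Irgm1 at 5.33 (next 5.60), Clec4d at 8.62 (next 8.70) and Tlr6 at 2.44 (next 2.80). Replicate 1 was lowest for Cd14 at 9.77 (next 9.99) and Ccr2 at 0.21 (next 0.28), and replicate 2 was lowest for Il18 at 2.88 (next 3.08). Replicate 3 was highest for Tlr7 at 6.58 (next 6.42) and Met at 0.38 (next 0.29). The groups of 3 astrocyte libraries were too small for this rule.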

How the results depend on the processing

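Of 22 other settings, 18 were planned and 4 were chosen after seeing the data (astrocyte values recomputed on the microglial exon length, genes of 1 table ranked lowest in the other, a mean of at least 1 in both tables, and nuclear protein-coding genes). No gene called in DMSO was called in the other direction under any of them, and 216 of the 277 called list members and named genes were called under all that ranked them. Among genes the report names, the call was lost under 8 settings for Bak1, 7 for P2ry14, 6 for Bmpr1a, Cd40 and Vegfa, 5 for Fadd, Lipa, Nr1h3 and Sqle, and 4 for Bmpr1b, C1s1, Ccl2, Ikbke, Nfkb1, Notch2, Npc1, Pdgfb and Pmaip1. At 40 percentile points 703 genes ranked higher in microglia and 879 in astrocytes. Without genes marked as confounded, 5754 genes were ranked, and 672 (11.7%) and 712 (12.4%) were called. Leaving out each library in turn gave 1497 to 1551 genes in microglia and 1663 to 1689 in astrocytes. When both tables were given the same distribution and 2 log2 units were required, 66.9% and 71.8% of the calls were made again, and the lysosome list had 9 members called in place of 1, antigen presentation 8 in place of 5, disease-associated microglia genes 7 in place of 4, interferon-stimulated genes 5 in place of 9, the NF-κB list 7 in place of 9 and the necrosome list 2 in place of 4. The cholesterol and lipid list had 3 microglial calls in place of 5 on the microglial exon length and 2 when genes of 1 table were ranked lowest in the other. The median difference of the glutamate, GABA and potassium list changed from -36.9 to 1.7 points when a mean of at least 1 in both tables was required, which left 4 of its 10 members. No paired analysis was possible because no label ties a microglial library to an astrocyte library, and no test was made between the cell types. The precision is limited by the number of libraries, by the adjustment of microglial replicates before deposit and by a depth that is unknown for microglial replicates 1 to 3, and low values such as Il6 or Il1a are near the lowest the tables hold.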
